A study of Mus musculus with 6 samples.

Results

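The genes described here are 10 genes of transforming growth factor beta (TGF-beta) and activin signalling, measured in tumours grown in mice with or without tenascin-C. They comprise 4 ligand genes (Tgfb1, Tgfb2, Tgfb3 and Inhba), 3 receptor genes (Tgfbr1, Tgfbr2 and Tgfbr3), 2 genes of latent TGF-beta binding proteins (Ltbp1 and Ltbp2) and 1 gene of an inhibitory Smad (Smad7). They were chosen by name, with earlier results of these data known. Every probe set whose only gene symbol in the array annotation was one of these names was taken. This gave 23 probe sets for 10 of the 18193 genes on the array. GLMT1 cells (GRS/A lung metastasis tumour 1) had been placed subcutaneously on the backs of male mice of the same strain background. The hosts were tenascin-C-deficient GRS/A-TgH(TnC) mice (TNKO) or wild-type GRS/A mice (WT), all 10 weeks old in the sample labels, and 3 tumours of each host genotype were hybridised to 1-colour Affymetrix arrays. All 6 tumours came from the same cell line, which the labels do not describe as lacking tenascin-C, so the groups differed in the host and not in the inoculated cells. The comparison asks how tumours grown in hosts without tenascin-C, a glycoprotein of the extracellular matrix, differ from tumours in WT hosts in the expression of these genes.

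TGF-beta ligands are secreted in a latent form, held by their own propeptide and tethered to the matrix by latent TGF-beta binding proteins, and act after release. An active ligand binds the type II receptor Tgfbr2, which recruits and phosphorylates the type I receptor Tgfbr1, while the co-receptor Tgfbr3 (betaglycan) presents ligand and is needed most by Tgfb2. Activin A, a dimer of the Inhba product, uses activin receptors of its own but shares the receptor-regulated Smad proteins, and Smad7 is a target of this signalling that feeds back on the receptors. In tumours these ligands are made by cancer cells and by stromal and immune cells, and they act on matrix production, invasion and immune cells.

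Inhba and Tgfb2 were the ligand genes whose values in TNKO hosts lay apart from those in WT hosts, as described further on, and Tgfb1 was a ligand gene whose values overlapped. Their promoters are shown for that reason, as the 250 bases before and 50 bases after the annotated start in RefSeq (GRCm38.p6, the C57BL/6J reference and not the GRS/A genome). The Inhba window is chr13:16011601-16011900 on the plus strand, the Tgfb2 window is chr1:186705940-186706239 on the minus strand, and the Tgfb1 window is chr7:25686752-25687051 on the plus strand. Capitals mark matches to 3 motifs, each searched on both strands. The TATA box was searched as TATAAA. The E-box core, which reads alike on both strands, was searched as CACGTG. The GC box was searched as GGGCGG, and a match on the other strand reads CCGCCC here.
Inhba: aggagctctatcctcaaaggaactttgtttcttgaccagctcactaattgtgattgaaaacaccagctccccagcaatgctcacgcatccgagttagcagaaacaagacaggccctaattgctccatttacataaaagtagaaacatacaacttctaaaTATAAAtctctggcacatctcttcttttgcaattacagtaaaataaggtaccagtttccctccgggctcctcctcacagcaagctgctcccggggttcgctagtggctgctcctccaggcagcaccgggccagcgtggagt
Tgfb2: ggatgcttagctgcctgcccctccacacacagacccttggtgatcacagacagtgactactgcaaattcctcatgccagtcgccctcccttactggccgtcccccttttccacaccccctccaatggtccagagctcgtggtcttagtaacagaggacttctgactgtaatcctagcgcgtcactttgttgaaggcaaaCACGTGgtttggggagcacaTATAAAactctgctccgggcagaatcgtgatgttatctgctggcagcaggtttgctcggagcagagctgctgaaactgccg
Tgfb1: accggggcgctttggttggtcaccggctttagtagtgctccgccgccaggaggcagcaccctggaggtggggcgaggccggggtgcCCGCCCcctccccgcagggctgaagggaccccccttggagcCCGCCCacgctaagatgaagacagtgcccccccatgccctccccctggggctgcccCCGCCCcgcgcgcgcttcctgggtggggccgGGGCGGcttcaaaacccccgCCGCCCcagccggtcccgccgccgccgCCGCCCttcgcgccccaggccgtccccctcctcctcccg
The TATA box match began 31 bases before the start in Tgfb2 and 91 bases before it in Inhba. A match was in 13.6% of the 32851 promoter windows of the table and was not among the letters of the Tgfb1 window. The E-box match stood in the Tgfb2 window, 51 bases before the start, and in 7.15% of all windows. The GC box was in the Tgfb1 window on both strands and in 35.7% of all windows, and it was not in the Inhba or Tgfb2 window. The marked matches do not overlap each other. The GC content was 47.7% for Inhba, 54.3% for Tgfb2 and 77.0% for Tgfb1. A match describes these letters and is no evidence of a bound factor. RefSeq windows were matched for 7 of the 10 genes.

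The deposited values were on a log2 scale and were nearly alike in all tumours. A probe set typically (median) spanned 5.46 millionths of a unit over the 6 arrays, so values are given below as millionths of a deposited log2 unit from the mean of the 6 arrays, and a difference cannot be read as a fold change in RNA. Differences are TNKO minus WT, and they are also given in residual SDs, that is, relative to how far the tumours of a host genotype scattered in that probe set. The array median was 6.5698 in TNKO tumour 3 and 6.5674 to 6.5676 in the other 5 arrays, and precision is limited by there being 3 tumours a group. Tnc, the gene deleted in the TNKO hosts, stood at -120459, -95426 and -85255 millionths in TNKO tumours and at 96642, 126321 and 78177 millionths in WT tumours in its brightest probe set (mean level 8.92), so each TNKO tumour was below each WT tumour. Its difference was -200760 millionths (SE 16351, adjusted p = 0.0537 by limma), which lies just outside the threshold. The 6 epithelial markers included Krt8 and Krt18, keratins of simple epithelia, at mean levels of 11.45 and 8.92. The other epithelial markers were dimmer, with Cdh1 at 7.48, Epcam at 7.04, Cldn4 at 6.18 and Esrp1 at 5.84. Cldn4 and Esrp1 thus lay below the array medians given above. The brightest fibroblast marker, Col3a1, stood at 13.55 (none of the marker genes was listed at 0). Skeletal muscle, adipocyte and hair follicle markers differed most between arrays. The summed log2 level of the 6 muscle markers was 38.9922 to 43.8970 in TNKO hosts and 42.9446 to 44.2276 in WT hosts, that of 5 adipocyte markers was 36.4674 to 38.7644 in TNKO hosts and 35.1994 to 36.9450 in WT hosts, and that of 5 hair follicle markers was 30.5456 to 46.8827 in TNKO hosts, with the maximum in TNKO tumour 3, and 30.4826 to 30.6828 in WT hosts.

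Of the 23 probe sets, 0 passed an adjusted p of 0.05 (limma, Benjamini-Hochberg over 45037 probe sets), where 0.175% of all probe sets passed and 0.133% passed with lower values. At an unadjusted p under 0.05 there were 7, all lower in TNKO hosts, where 20.3% of all probe sets reached that level in either direction, 10.8% with lower and 9.53% with higher values. The 3 TNKO values all lay below the 3 WT values in 9 probe sets and all above them in 1, against 13.8% and 14.2% of all probe sets, or 28.0% in either direction. The mean was lower in TNKO hosts in 17 of 23, where 45.6% of all probe sets were lower. Without WT tumour 3, which stood at an end in most of them, 9 probe sets were lower and 3 higher without overlap, against 16.9% and 19.3% of all probe sets in that setting. By gene, read from the probe set with the highest mean, TNKO values were lower without overlap in 4 of 10 (Tgfb2, Inhba, Ltbp2 and Smad7), where 11.1% of all genes were, and higher without overlap in 1 (Tgfbr3), where 15.0% were. In either direction the share of all genes was 26.1%. The median difference of the 10 genes was -0.99 residual SDs, against 0.28 over all genes. The means were lower in TNKO hosts in 8 of 10 genes, where 42.4% of all genes were lower. Subtracting each array's median or quantile normalization shifted the median of all probe sets by -764 and -538 millionths, more than most differences given here and in the pathway list, and 22 of the 23 were then lower. Directions below are those of the values as deposited. In bulk tumours, fewer cells of a type and less RNA per cell cannot be told apart.

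**Figure D1:**
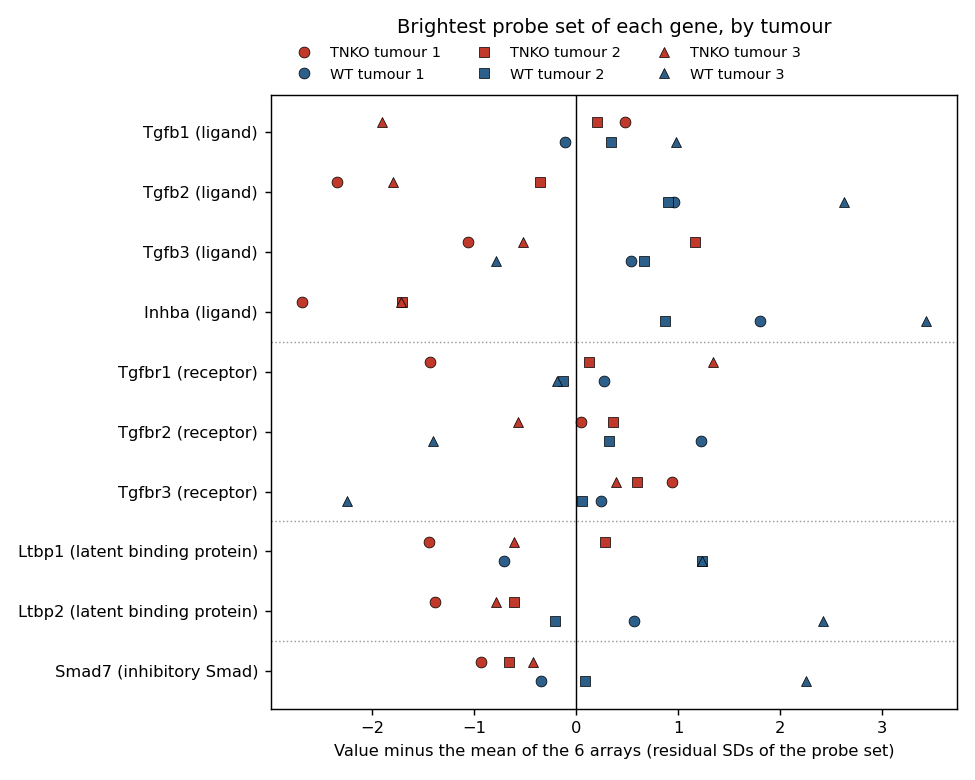
Each row is the brightest probe set of 1 gene, and each point is 1 tumour, placed on the horizontal axis at its value minus the mean of the 6 arrays in residual SDs of that probe set (TNKO in red above, WT in blue below). Tgfb2, Inhba, Ltbp2 and Smad7 have their 3 TNKO points left of their 3 WT points, Tgfbr3 has them to the right, and WT tumour 3 is the rightmost point in Tgfb1, Tgfb2, Inhba, Ltbp2 and Smad7.

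Inhba, which encodes the activin A subunit, had the smallest p among the 10 genes. In its brightest probe set (1422053_at, mean level 11.48) TNKO tumours 1 to 3 stood at -2374, -1503 and -1519 millionths, against 1594, 769 and 3033 millionths in WT tumours 1 to 3. All 3 TNKO tumours were below all 3 WT tumours, and TNKO tumours 2 and 3 were close together while the WT tumours were spread wider. The group means were -1799 ± 498 millionths in TNKO hosts and 1799 ± 1146 millionths in WT hosts (SD, n = 3 each). The difference was -3597 millionths (SE 674, 95% interval -5379 to -1815) or -4.07 residual SDs, with an adjusted p of 0.105 by limma, which missed the threshold. Of all probe sets, 2.66% had a difference in residual SDs as low or lower. The dimmer Inhba probe set (1458291_at, mean level 6.09) showed no such order. Its difference was -0.641 millionths (95% interval -6.58 to 5.30), and WT tumours 2 and 3 were its lowest and highest arrays.

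Tgfb2, the ligand that depends most on the co-receptor betaglycan, was measured by 4 probe sets, and in 4 of 4 all TNKO values lay below all WT values. In the brightest (1450923_at, mean level 9.30) the TNKO tumours stood at -260, -39.3 and -199 millionths, against 107, 99.6 and 292 millionths in WT tumours. TNKO tumour 2 lay nearest to the WT tumours, and WT tumour 3 was the highest. The difference was -332 millionths (SE 85.0, 95% interval -557 to -107) or -2.98 residual SDs (adjusted p = 0.150 by limma), which did not pass. The greatest difference of the 4 was in 1450922_a_at, with TNKO tumours at -723, -75.3 and -628 millionths and WT tumours at 360, 326 and 740 millionths. It amounted to -950 millionths (SE 226), or -3.21 residual SDs (adjusted p = 0.137 by limma). The remaining probe sets differed by -511 and -171 millionths, or -2.97 and -2.90 residual SDs (adjusted p = 0.151 and 0.155 by limma). The 4 probe sets read the same RNA of 6 tumours and are not replicates of the comparison. TNKO tumour 1 was the lowest and WT tumour 3 the highest array in each. Over the 6 arrays, Pearson's r of the brightest Inhba probe set with the Tgfb2 probe sets was 0.931 to 0.958, a description over arrays that share the host difference.

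**Figure D2:**
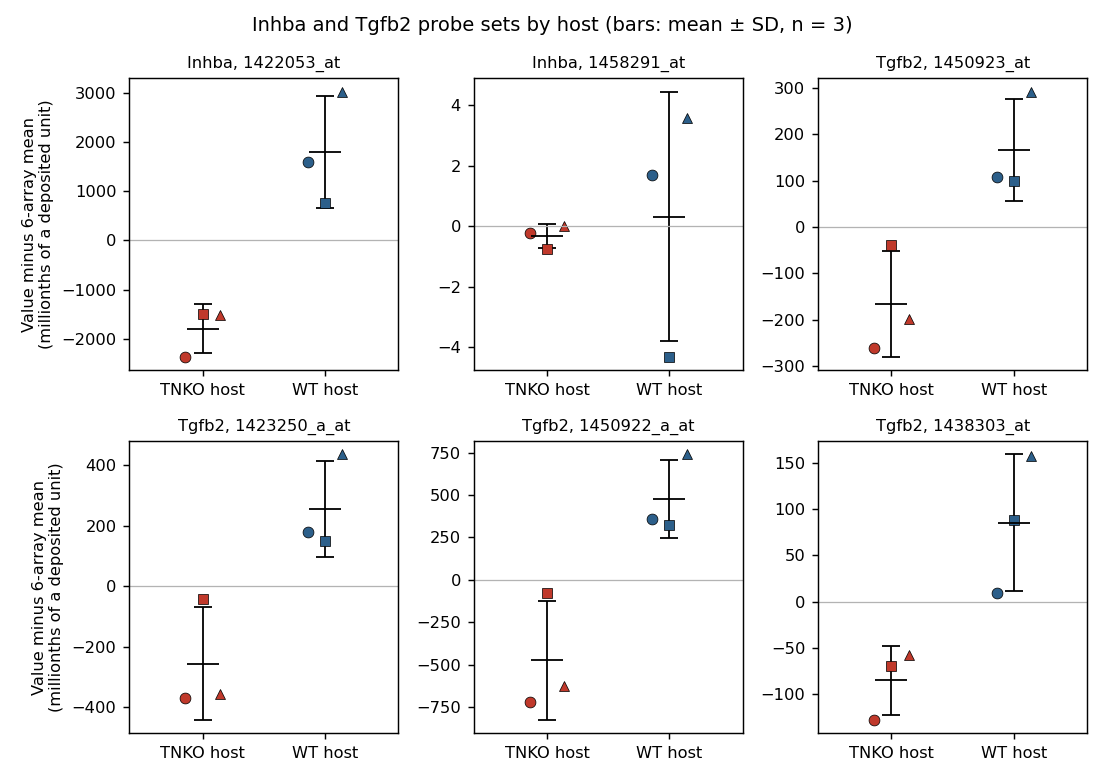
Each panel is 1 probe set of Inhba or Tgfb2, with the host on the horizontal axis and the value minus the mean of the 6 arrays, in millionths of a deposited log2 unit, on the vertical axis. Points are tumours (circle 1, square 2, triangle 3), bars are mean ± SD (n = 3), and the 3 TNKO points lie below the 3 WT points in every panel except that of 1458291_at.

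Tgfb1 and Tgfb3, the remaining ligand genes, had overlapping groups. Tgfb1 in its brightest probe set (mean level 7.06) stood at 1.38, 0.587 and -5.43 millionths in TNKO tumours and at -0.310, 0.972 and 2.80 millionths in WT tumours. TNKO tumours 1 and 2 lay among the WT tumours, and TNKO tumour 3 lay below the rest. The difference was -2.31 millionths (95% interval -8.10 to 3.48, adjusted p = 0.615 by limma), and it was -0.172 without TNKO tumour 3. The other Tgfb1 probe set differed by 0.158 millionths. Tgfb3, with 1 probe set (mean level 8.54), stood at -17.0, 18.7 and -8.38 millionths in TNKO tumours and at 8.69, 10.6 and -12.6 millionths in WT tumours, with the TNKO tumours at both ends. Its difference was -4.47 millionths (95% interval -36.8 to 27.8, adjusted p = 0.883 by limma).

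Of the ligand probe sets 5 of 9 were lower without overlap in TNKO hosts, and of the receptor and latent binding protein probe sets 3 of 12, with 1 of 12 higher. Over all probe sets 13.8% were lower and 14.2% higher without overlap. The median difference was -2.90 residual SDs over the 9 ligand probe sets and -0.19 over the 12. As the 5 ligand probe sets belong to Tgfb2 and Inhba alone, these counts rest on 2 genes, and the difference between the roles was not tested.

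**Figure D3:**
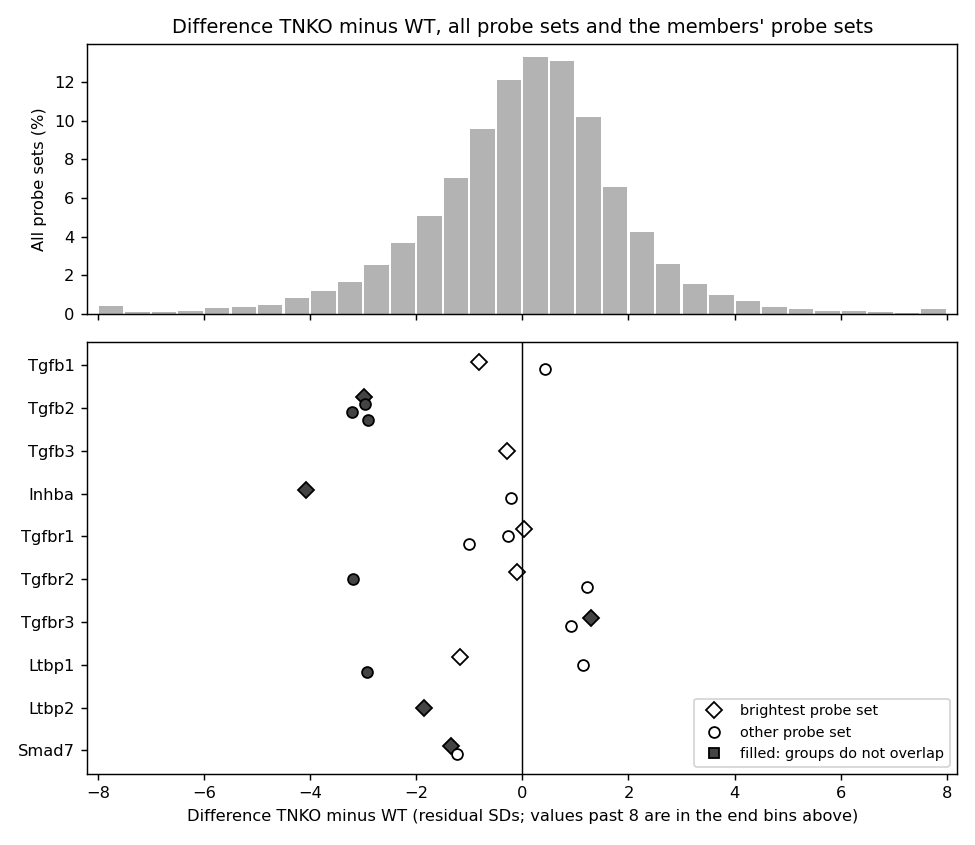
The upper panel gives the share of all 45037 probe sets, in percent, in bins of the difference TNKO minus WT in residual SDs, and the lower panel places each probe set of the 10 genes on the same axis. Diamonds are brightest probe sets, circles the others, and filled symbols have groups that do not overlap: the Tgfb2 probe sets lie between -3.21 and -2.90, and the brightest of Inhba lies at -4.07.

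The receptors showed no shared direction, with 4 of 8 probe sets lower and 4 higher in the mean. Tgfbr1, the type I receptor that carries the signal into the cell, had 3 probe sets whose groups all overlapped. The brightest (1420895_at, mean level 9.63) stood at -3.30, 0.302 and 3.09 millionths in TNKO tumours and at 0.630, -0.302 and -0.424 millionths in WT tumours, with the WT tumours inside the range of the TNKO tumours. Its difference was 0.0633 millionths (95% interval -4.61 to 4.74, adjusted p = 0.992 by limma). Tgfbr2, the ligand-binding type II receptor, differed between its probe sets. The brightest (1426397_at, mean level 11.12) stood at 0.378, 2.78 and -4.34 millionths in TNKO tumours and at 9.36, 2.48 and -10.7 millionths in WT tumours, which overlapped (difference -0.790, 95% interval -16.2 to 14.6). A dimmer one (1425444_a_at, mean level 6.61) stood at -62.7, -94.9 and -64.8 millionths in TNKO tumours and at 92.5, 4.07 and 126 millionths in WT tumours. There the TNKO tumours were all lower, by -148 millionths in the mean (SE 35.3) or -3.20 residual SDs, with an adjusted p of 0.138 by limma. The remaining Tgfbr2 probe set differed by 7.97 millionths with overlapping groups, so no single direction holds for this gene.

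Tgfbr3, the betaglycan gene, was the gene higher in TNKO hosts without overlap. Its brightest probe set (1433795_at, mean level 8.55) stood at 1204, 769 and 505 millionths in TNKO tumours and at 315, 76.9 and -2871 millionths in WT tumours. WT tumour 3 lay far below the other 5 tumours. The difference was 1653 millionths (SE 976, 95% interval -928 to 4233) or 1.29 residual SDs (adjusted p = 0.418 by limma), and without WT tumour 3 it was 630 millionths, with an adjusted p of 0.378. The dimmer Tgfbr3 probe set differed by 0.984 millionths, with overlapping groups. Several marker lists also had their lowest sum in WT tumour 3. The summed log2 level of 6 endothelial markers was 43.2159 to 43.2171 in TNKO hosts and 43.2146 to 43.2157 in WT hosts (6 of 6 markers higher in the mean), that of 6 macrophage markers was 58.3574 to 58.3582 in TNKO hosts and 58.3527 to 58.3573 in WT hosts (5 of 6). That of 4 platelet markers was 27.6929 to 27.6943 in TNKO hosts and 27.6922 to 27.6925 in WT hosts, with 2 of 4 higher, and it followed Pf4, a platelet chemokine, whose difference was 1298 millionths against -0.538 to 0.525 for the others. Fibroblast markers were higher in 5 of 6, with overlapping sums of 64.4212 to 64.4322 in TNKO hosts and 64.4056 to 64.4238 in WT hosts. The widest difference was that of Lum, at 8567 millionths with overlapping groups. The exception, Dcn, was the only fibroblast marker gene without overlap, lower by -4.11 residual SDs (adjusted p = 0.104 by limma). T cell markers were higher in 5 of 6, and adipocyte and hair follicle markers in 5 of 5 each, with overlapping sums and the lowest in WT tumour 3. No marker of these lists was at 0, and neither was any other probe set tested. Of the probe sets for spiked-in hybridisation controls, 18 of 18 were higher in the mean in TNKO hosts. In 16 of 18 they were higher without overlap, where 14.2% of all probe sets were. The part of these markers and controls in the Tgfbr3 values was not tested.

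Ltbp1 and Ltbp2 encode matrix proteins, of which Ltbp1 binds the latent ligand complex and Ltbp2 sits on fibrillin microfibrils. The brightest Ltbp1 probe set (1448870_at, mean level 10.42) stood at -3.55, 0.698 and -1.49 millionths in TNKO tumours and at -1.73, 3.05 and 3.03 millionths in WT tumours, which overlapped (difference -2.90, 95% interval -7.89 to 2.10). A dimmer Ltbp1 probe set (1447547_at, mean level 6.31) stood at -113, -57.6 and -19.1 millionths in TNKO tumours and at 18.3, 82.6 and 89.0 millionths in WT tumours. All TNKO values there were below all WT values, with a difference of -127 millionths (SE 33.1) or -2.92 residual SDs and an adjusted p of 0.154 by limma. The remaining Ltbp1 probe set differed by 0.102 millionths. Ltbp2, with 1 probe set (mean level 10.41), stood at -4.48, -1.95 and -2.55 millionths in TNKO tumours and at 1.83, -0.678 and 7.82 millionths in WT tumours. The groups did not overlap, but WT tumour 2 lay close to the TNKO tumours. The difference was -5.98 millionths (95% interval -12.5 to 0.548, adjusted p = 0.277 by limma), and it was -3.57 without WT tumour 3.

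Smad7, the feedback inhibitor that is itself a target of the signal, was measured by 2 probe sets. In the brightest (1423389_at, mean level 8.42) TNKO tumours stood at -15.6, -11.0 and -7.03 millionths, against -5.66, 1.54 and 37.7 millionths in WT tumours. The TNKO tumours were lower without overlap, but WT tumour 1 lay next to them and WT tumour 3 stood apart. The difference was -22.4 millionths (95% interval -56.2 to 11.3, adjusted p = 0.403 by limma), and it was -9.15 without WT tumour 3. The dimmer probe set differed by -14.2 millionths, with overlapping groups.

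The same arrays stood at the ends in most of the 23 probe sets. The highest value was that of WT tumour 3 in 14 of 23, and the lowest that of TNKO tumour 1 in 13 of 23, where over all 45037 probe sets WT tumour 3 was highest in 8725 and TNKO tumour 1 lowest in 6452. For Inhba the difference was -2980 millionths without WT tumour 3 and -3309 without TNKO tumour 1. For Tgfb2 it was -269 millionths without WT tumour 3 and -285 without TNKO tumour 1. Both were within 1.5 times the values from all 6 tumours. No marker list had summed levels in TNKO hosts below those in WT hosts without overlap. Skeletal muscle markers were lower in 6 of 6 genes in the mean, with overlapping sums, and epithelial markers were lower in 3 of 6. Interfollicular epidermis markers were lower in 4 of 5, with overlapping sums and the highest sum in WT tumour 3. Smooth muscle markers were lower in 2 of 5, also with overlapping sums. Probe sets at the 5' ends of mouse control genes were lower without overlap in 4 of 5. Those in the middle were in 4 of 6 and those at the 3' ends in 2 of 5. Over all probe sets 13.8% were. In the middle, 2 of 6 were higher without overlap, where 14.2% of all probe sets were, and at either end 0 were. The part of these controls in the Inhba and Tgfb2 values was not tested.

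Among genes that spanned at least as much as Inhba over the 6 arrays, 234 in all, those most like it by Pearson's r over the 6 arrays were Gzmd (r = 0.939), Mcpt1 (0.884) and Tnc (0.884). Gzmd is a granzyme gene with close relatives in its cluster, whose signals a probe set of this kind may share, Mcpt1 encodes a mast cell protease, and Tnc is the tenascin-C gene. Their differences were all negative, the one of Tnc as given above, Gzmd at -21261 (adjusted p = 0.189 by limma) and Mcpt1 at -7171 (adjusted p = 0.0986 by limma). The 6 arrays share the host difference and their hybridisation, so these values describe likeness over 6 points.

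The other genes of the pathway were taken from a list of 42, also chosen with earlier results of these data known. Of these 42, 39 were measured, each read from its brightest probe set. Of the 39, 0 passed an adjusted p of 0.05 (limma), where 0.121% of all genes did and 0.0770% did with lower values. At an unadjusted p under 0.05, 9 were lower and 4 higher in TNKO hosts, where 8.43% and 9.99% of all genes were. The groups did not overlap in 10 with lower values, against 11.1% of all genes, and in 6 with higher values, against 15.0%. The median difference was -0.29 residual SDs, against 0.28 over all genes.

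Target genes of the pathway had lower means in 5 of 7, where 42.4% of all genes had. Ccn2, listed as Ctgf, encodes a matricellular growth factor and stood at -109, -107 and -58.9 millionths in TNKO tumours and at 30.4, 153 and 91.6 millionths in WT tumours. The TNKO tumours were all lower, by -183 millionths in the mean (SE 36.5) or -3.83 residual SDs, with an adjusted p of 0.112 by limma. Tsc22d1, a gene induced by TGF-beta, differed by -8.87 millionths or -2.42 residual SDs (adjusted p = 0.198 by limma). Its dimmer probe sets ran from -3.85 residual SDs (1454758_a_at, lower without overlap) to 0.07 (1435952_at, with overlapping groups). Klf10, an early TGF-beta response gene, and Cdkn1a, a cell cycle inhibitor, were the 2 target genes with higher means. They differed by 1.46 and 0.60 residual SDs, and their groups overlapped. The dimmer Cdkn1a probe set went the other way, by -0.34 residual SDs, also with overlapping groups.

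Intracellular inhibitors were lower without overlap in 4 of 6, where 11.1% of all genes were. Smurf2, a ubiquitin ligase that acts with Smad7 on the receptors, differed by -7.37 millionths (SE 1.97) or -2.87 residual SDs (adjusted p = 0.159 by limma). Pmepa1, which keeps Smad proteins from the receptor, differed by -3.64 millionths or -2.60 residual SDs (adjusted p = 0.184 by limma). Its other probe sets (mean levels 10.48 and 9.16) differed by 0.02 and -0.37 residual SDs, with overlapping groups. Smurf1 and the corepressor Tgif1 were the others, at -2.26 and -2.12 residual SDs, while Ski and Skil overlapped. The dimmer Smurf1 probe set overlapped (-0.46 residual SDs), and the dimmer one of Ski was lower without overlap (-2.04). Of the Smad proteins, Smad2, which carries TGF-beta and activin signals, stood at -5.53, -2.13 and -17.0 millionths in TNKO tumours and at 8.24, 7.19 and 9.19 millionths in WT tumours. Its groups did not overlap, with a difference of -16.4 millionths or -2.96 residual SDs (adjusted p = 0.151 by limma). The dimmer Smad2 probe set (1442062_at, mean level 7.52) was also lower without overlap, by -3.95 millionths or -4.97 residual SDs. It had the smallest adjusted p of all probe sets of the list (0.0901 by limma). Smad4, the common partner Smad, differed by -0.103 millionths (95% interval -0.839 to 0.632).

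The activin and related receptors went both ways. Acvr1, a type I receptor of activins and bone morphogenetic proteins, stood at -24.0, -12.3 and -24.3 millionths in TNKO tumours and at 5.70, 21.1 and 33.7 millionths in WT tumours. The difference was -40.4 millionths (SE 8.43) or -3.66 residual SDs (adjusted p = 0.118 by limma). A dimmer Acvr1 probe set (1416786_at) was also lower without overlap, by -4.41 residual SDs (adjusted p = 0.0986 by limma). The dimmest (1416787_at) went the other way, by 0.64 residual SDs, with overlapping groups. Acvr1c, a type I receptor that adipocytes express, was higher without overlap by 4.62 millionths or 3.21 residual SDs (adjusted p = 0.140 by limma). However, its mean level was low (6.28) and its other probe sets overlapped. The 5 adipocyte markers were higher in the mean in 5 of 5, whose part in the Acvr1c values was not tested. Acvr1b, the main type I receptor of activin A, was lower without overlap by -2.10 residual SDs (adjusted p = 0.235 by limma). Its dimmer probe set went the other way, by 1.58 residual SDs, with overlapping groups. The type II receptors Acvr2a and Acvr2b had overlapping groups. Eng, endoglin, a co-receptor of endothelial cells, was higher without overlap by 8.51 millionths or 1.78 residual SDs (adjusted p = 0.291 by limma), as were the summed endothelial markers given above, whose part in it was not tested. The dimmer Eng probe set (mean level 7.38) had overlapping groups.

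By brightest probe set, genes of TGF-beta latency and activation held the smallest p of the list. Itgb6, the beta subunit of an integrin that releases TGF-beta from its latent form, stood at 1.05, 0.673 and 0.846 millionths in TNKO tumours and at -1.24, -0.711 and -0.616 millionths in WT tumours. It was higher without overlap, by 1.71 millionths (SE 0.294) or 6.26 residual SDs, with an adjusted p of 0.0985 by limma, but its mean level was low (6.09) and its other probe set overlapped. Thbs1, thrombospondin 1, another activator, stood at -458, -256 and -12.1 millionths in TNKO tumours and at 19.0, 334 and 373 millionths in WT tumours. TNKO tumour 3 was close to WT tumour 1, and the difference was -484 millionths (SE 160) or -2.31 residual SDs (adjusted p = 0.207 by limma). In the dimmer Thbs1 probe set (1450377_at, mean level 7.89) the TNKO tumours were also all lower. The difference there was -836 millionths (SE 174) or -3.66 residual SDs (adjusted p = 0.118 by limma). Furin, the protease that cuts the TGF-beta precursors, and Itgav, the partner subunit of Itgb6 and Itgb8, differed by -0.16 and -0.03 residual SDs. Itgb8, the beta subunit of another activating integrin, had the widest difference of the list, at -1212 millionths or -1.80 residual SDs, with overlapping groups (adjusted p = 0.287 by limma).

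Among other ligands of the family, Gdf11 and Nodal were higher without overlap by 2.67 and 5.16 millionths, or 3.34 and 2.10 residual SDs (adjusted p = 0.140 and 0.235 by limma). Their mean levels were 6.55 and 6.78, and the other Nodal probe set overlapped. Inhbb and Inha, which encode the other activin subunit and the inhibin alpha subunit, differed by -0.71 and -0.29 residual SDs with overlapping groups. Of the extracellular inhibitors, Bambi, a decoy receptor, was higher without overlap, with TNKO tumours at -339, 337 and 1569 millionths and WT tumours at -365, -381 and -820 millionths. Its difference was 1045 millionths (SE 540) or 1.47 residual SDs (adjusted p = 0.363 by limma), TNKO tumour 3 was the highest, and TNKO tumour 1 lay next to the WT tumours. The mean level of Bambi was low (6.16). Fst, follistatin, which binds activin, differed by 0.30 residual SDs, and Fstl3 by -0.86 residual SDs, with overlapping groups in both.

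**Figure D4:**
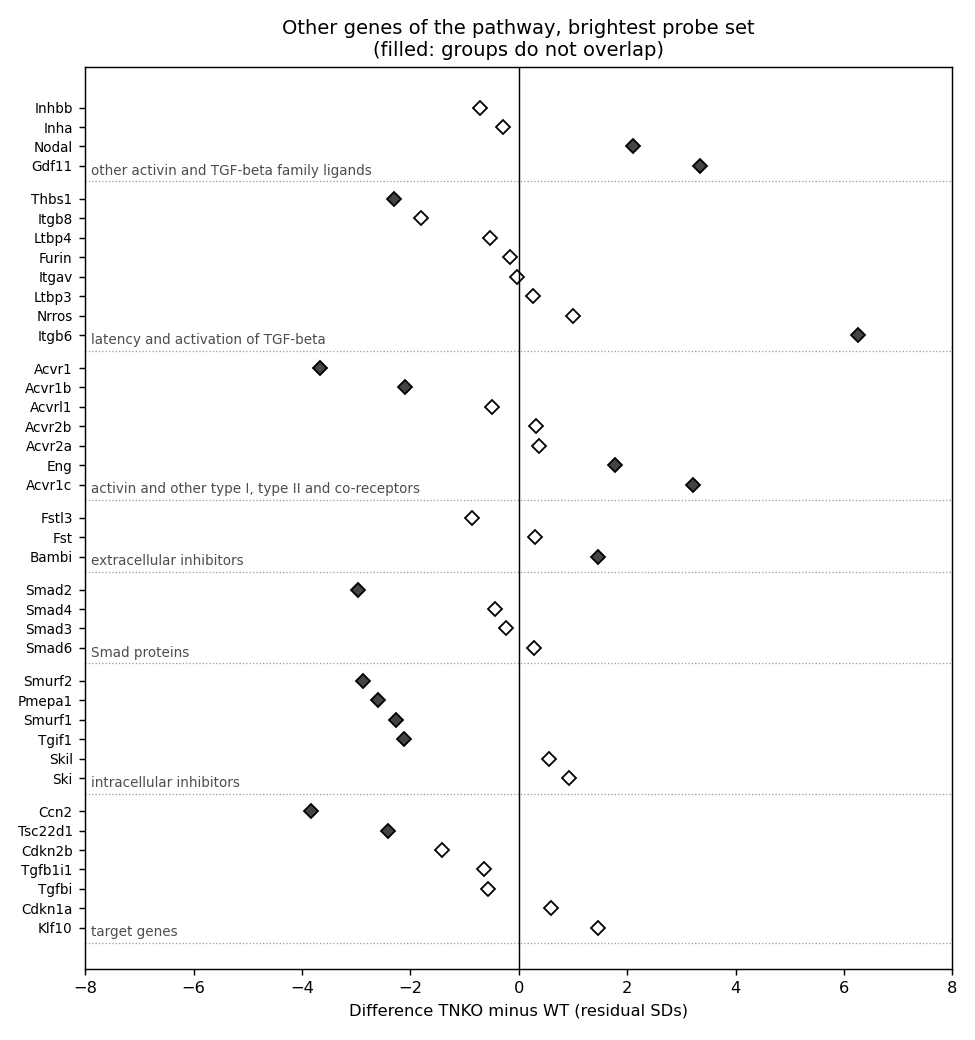
Each row is 1 of the 39 other pathway genes, grouped by role, and each diamond its difference TNKO minus WT in residual SDs on the horizontal axis. Filled diamonds have groups that do not overlap: 10 lie left of 0, among them Ccn2 at -3.83 and Acvr1 at -3.66, and 6 lie right of it, with Itgb6 furthest at 6.26.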

How the data were processed

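RNA of 3 TNKO and 3 WT tumours was measured on Affymetrix arrays from 100 ng of total RNA each, per the labels' protocols. The deposited table holds a log2 value per probe set and array, as normalized by the authors. The submitters' processing notes name R 2.7.2. How probes were summarized and normalized, and to which base, is not given in the sources used here (log2 is taken from the range of the values, 5.20 to 13.85). The values differ far less between arrays than usual array values, so differences are no fold changes. No test included the 64 control probe sets. Of the 45037 tested, 34945 had 1 gene symbol in the platform annotation, 932 several and 9160 none, and the probe set with the highest mean stood for a gene.

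TNKO minus WT was fitted with limma 3.58.1 (R 4.3.3), using lmFit and then eBayes with neither trend nor robust moderation, two-sided, on all probe sets and 6 arrays, with Benjamini-Hochberg adjustment and a threshold of 0.05. The labels call the arrays biological replicates and name no batch, and the sample titles do not say whether each tumour came from its own mouse. Pairs of arrays shared 21 to 43 identical values, so none was taken as a copy. The members and lists were chosen with earlier results of these data known. All members are named, and of the pathway list, for each role, the 2 genes with the smallest p, and 3 genes most like the member with the smallest p. Other pathway genes were named after their values were seen. Of 62 marker genes 60 were measured. Alternatives were another scaling, moderation, array weights, a filter on dim probe sets, a replicate block, leaving out each array and the mean over probe sets. The fit was tested on simulated data.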

Additional observations from a re-analysis of the deposited data

How the results depend on the processing

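No probe set of the 10 genes or of the pathway list passed under any alternative run (limma), with 23 and 83 tested, or 16 and 62 under the filter on dim probe sets. At an unadjusted p under 0.05, leaving out each tumour, trend, robust moderation, array weights and the block gave 7 to 9 of 23, where 6807 to 9338 of all 45037 reached it. Quantile normalization gave 3 (591 of 45037), subtraction of array medians 0 (87 of 45037) and the filter 6 of 16 (5420 of 22518). Inhba, Tgfb2, Tgfb1, Tgfbr3, Ltbp1, Ltbp2 and Smad7 had the same sign in 14 of 14 alternatives each. Under the 2 scalings these values include the shift given below, which was larger than the deposited differences of Tgfb1, Tgfb2, Ltbp1, Ltbp2 and Smad7. Relative to that shift, Ltbp1 stood at -3.00 (medians subtracted) and -170 (quantile), Ltbp2 at -6.08 and -258, and Smad7 at -22.5 and -452. Only Tgfb1 of these changed sign relative to it. The adjusted p ran over 0.0784 to 0.990 for Inhba and 0.117 to 0.990 for Tgfb2. The sign of genes near 0 did not hold. Tgfbr1 was -764 millionths with array medians subtracted, -1201 with quantile normalization, -0.303 with array weights and -2.15 as the mean over its probe sets, and it ran from -1.47 to 1.73 with each tumour left out. In the same way Tgfbr2 ran from -6.31 to 3.69 and Tgfb3 from -14.9 to 2.93. Over all probe sets the median difference became -764 millionths (medians subtracted) and -538 (quantile), so 22 of the 23 probe sets were then lower, while 18 and 14 of 23 lay below that median, against 18 as deposited. Relative to the shift, Inhba stood at -3597 and -6869, Tgfb2 at -332 and -549, and Tgfbr3 at 1653 and 1242, while Tgfb1 stood at -2.41 and 2.42.

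Probe sets without overlap and lower in TNKO hosts numbered 5 with medians subtracted (2.03% of all), 9 with quantile normalization (15.4% of all), and 9 to 11 with each tumour left out (16.9% to 19.1% of all). Those higher numbered 0 under both scalings (0.104% and 0.109% of all) and 1 to 3 with each tumour left out (18.7% to 22.3% of all). These counts were chosen after the data were examined. Of all 45037 probe sets, 79 passed (19 higher, 60 lower), 68 with medians subtracted (58 higher, 10 lower), 0 with quantile normalization (591 at an unadjusted p under 0.05), 285 among those above the median level, and 0 to 73 with each tumour left out. The 0 calls came without WT tumour 1 (7144 at an unadjusted p under 0.05) and without WT tumour 3 (6807), and without TNKO tumours 1, 2 and 3 there were 1, 4 and 6. With a replicate block 0 passed (7816 at an unadjusted p under 0.05), with an adjusted p of 0.208 for Inhba and 0.279 for Tgfb2. The labels give no pairing, deviations of same-numbered tumours correlated at 0.175, -0.218 and -0.112, and 2 of 6 arrays correlated best with their own number, so the numbers were not taken as pairs. The causes of these differences between settings were not tested. Arrays give no depth, and signal over background was not analysed here.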
